A study of Mus musculus with 18 samples.

Results

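Embryos without Dnmt3a (Dnmt3a KO; replicates 1, 2, 13 and 14) were compared with wild-type embryos (WT; replicates 1 to 7), which together make up 11 of the 18 libraries of the series, chosen by their labels. Each library held the cells of 1 whole embryo, so the embryo was the unit of replication. Cells were kept if they had at least 1500 mouse UMIs (unique molecular identifiers, tags by which each captured transcript is counted once) and at most 30% of them from mitochondrial genes. This left 73490 cells, 37148 from KO and 36342 from WT embryos, of the 118602 that passed the same rule over the whole series.

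The series asks how loss of each DNA methyltransferase changes transcription as the organs begin to form, and also holds Dnmt1 KO and Dnmt3b KO embryos, which were not used here except in 1 alternative fit. All 11 embryos were 129S4/SvJae mice collected at embryonic day 8.5 (E8.5). KO embryos were homozygous mutants, mutants and WT came from matings of heterozygous carriers, and genotypes had been read by PCR. The sources used here do not say which part of Dnmt3a was deleted, nor which WT embryos were littermates of which mutants. The labels call the genotype Dnmt3a null, and give no further allele for KO or WT embryos.

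DNMT3A and DNMT3B place methyl groups on cytosines of CpG dinucleotides that carried none, and DNMT1 copies the pattern when DNA is replicated. A well-known set of targets are genes of the germline, whose promoters, many of them rich in CpG, become methylated in the embryo around implantation and stay silent in body cells. Among them are genes for meiotic chromosomes, for the piRNA pathway that silences transposons, and for germline copies of widely used metabolic and ribosomal proteins. The extraembryonic (ExE) endoderm, which forms the visceral yolk sac, is known for lower DNA methylation than the embryo proper.

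Promoter sequences are shown for 5 germline genes that were higher in KO embryos, 1 or 2 from each of the 4 germline lists described below, because the CpG content of such promoters is what DNMT3A can act on. Each run is the 250 bases before the RefSeq start of the gene (GRCm38.p6), read 5′ to 3′ on the strand of the gene, with CpG dinucleotides in capitals. Stk31 (chr6:49395289-49395538, plus strand) held 21 CpG, Slc25a31 (chr3:40708621-40708870, plus strand) 18, Dazl (chr17:50293621-50293870, minus strand) 20, Tex12 (chr9:50561269-50561518, minus strand) 20 and Cyct (chr2:76360454-76360703, minus strand) 6.
Stk31: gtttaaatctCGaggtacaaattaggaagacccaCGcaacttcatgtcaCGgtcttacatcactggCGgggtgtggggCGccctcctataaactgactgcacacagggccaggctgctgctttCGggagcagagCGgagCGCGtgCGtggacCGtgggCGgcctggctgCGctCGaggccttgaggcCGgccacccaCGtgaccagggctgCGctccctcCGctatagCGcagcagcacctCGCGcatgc
Slc25a31: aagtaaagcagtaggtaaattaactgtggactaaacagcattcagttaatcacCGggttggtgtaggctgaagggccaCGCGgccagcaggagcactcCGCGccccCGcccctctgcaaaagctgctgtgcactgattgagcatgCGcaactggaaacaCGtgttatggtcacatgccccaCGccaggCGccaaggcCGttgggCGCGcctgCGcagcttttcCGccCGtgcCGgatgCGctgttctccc
Dazl: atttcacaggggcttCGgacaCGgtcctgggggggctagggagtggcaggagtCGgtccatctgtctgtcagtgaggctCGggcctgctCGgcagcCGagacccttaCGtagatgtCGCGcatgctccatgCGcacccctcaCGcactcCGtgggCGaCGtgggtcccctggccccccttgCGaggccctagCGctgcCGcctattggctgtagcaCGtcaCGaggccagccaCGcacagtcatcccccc
Tex12: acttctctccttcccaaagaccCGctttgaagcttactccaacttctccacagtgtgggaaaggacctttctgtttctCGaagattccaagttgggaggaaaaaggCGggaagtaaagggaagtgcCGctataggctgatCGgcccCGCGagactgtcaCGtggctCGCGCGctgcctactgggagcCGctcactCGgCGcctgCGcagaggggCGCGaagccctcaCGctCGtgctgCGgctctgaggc
Cyct: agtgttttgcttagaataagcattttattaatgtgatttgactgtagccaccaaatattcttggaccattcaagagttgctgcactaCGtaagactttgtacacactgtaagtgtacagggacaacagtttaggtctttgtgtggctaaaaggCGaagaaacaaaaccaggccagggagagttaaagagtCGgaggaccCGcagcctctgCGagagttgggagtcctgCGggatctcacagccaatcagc

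The first 4 are dense in CpG and Cyct is not. A promoter was found for 17 of the 20 germline genes called higher, with a median of 14 CpG (range 2 in Tex19.2 to 31 in Ddx4), against 12 for germline list members tested but not called and 14 for all tested genes with a promoter in the table. It was 5 for the genes called higher outside the germline lists. Only 76.7%, 72.5% and 74.3% of those sets had a promoter in the table, so nothing is drawn from these medians. Over all 27025 promoters of the table, many of genes not tested, the median was 6. The palindromic 6-base motif CACGTG, which reads the same on both strands, stood in 4 of the 17 (23.5%), among them Stk31, Slc25a31 and Tex12, in 14 of the 46 promoters of germline list members tested but not called (30.4%), and in 6.05% of all promoters of the table. No promoter was matched for Piwil2, Dppa2 and Cox8c.

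Kept cells per library ranged from 6300 to 14387 in KO and from 1381 to 9063 in WT, and summed UMIs from 37342307 (WT 5) to 253859789 (Dnmt3a KO 14). Dnmt3a KO 2 and WT 2 were shallow, with a median of 4169 and 6302 UMIs per cell against 24222 or more in the other 9. No pair of libraries shared more than 132 barcodes. By Y-linked genes all 4 KO embryos were male, whereas WT 2 was the single male among 6 female WT embryos, so that sex and genotype can be told apart only through WT 2. WT 2 is therefore named beside many of the whole-embryo values, but not beside most values within cell classes. The reference for Dnmt3a KO 1, Dnmt3a KO 13 and WT 1 held the human genome beside that of the mouse.

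Dnmt3a itself (ENSMUSG00000020661, mm10 chromosome 12, 3806007 to 3914443, plus strand), a protein-coding gene, was measured at 8.71, 9.67, 7.59 and 11.9 CPM (UMIs per 1000000 UMIs of the embryo) in Dnmt3a KO 1, 2, 13 and 14, and in WT at 23.5 at the lowest, 30.6 at the median and 34.9 at the highest. The groups did not overlap, and transcripts were still detected in each of them, which 3′ tags outside a deleted part would also give. The log2 fold change was -1.68 (SE 0.10, edgeR quasi-likelihood test, Benjamini-Hochberg adjusted p 1.28e-06), and an exact two-sided permutation test gave p = 0.00303, the smallest that 330 assignments allow. Dnmt3a was called lower in 15 of 18 cell classes, from a log2 fold change of -2.39 in ExE endoderm to -0.99 in pharyngeal mesoderm, where it was not called. The other enzymes of the pathway were not called in this fit. Dnmt1, the maintenance enzyme, averaged 102 ± 11.9 CPM in KO (SD, n = 4) and 104 ± 10.6 in WT (n = 7), and Dnmt3b, the other de novo enzyme, 55.9 ± 8.07 and 62.7 ± 17.8. Dnmt3l, a catalytically inactive partner, lay between 0.163 and 0.243 CPM in KO and at a median of 0.179 in WT, with 1.38 CPM in WT 2, and with sex as a covariate it was called lower (log2 fold change -2.91, adjusted p 0.00792), in a fit where WT 2 is the only male WT embryo. Uhrf1, which brings DNMT1 to replicated DNA, averaged 137 ± 21.0 and 112 ± 13.1 CPM (log2 fold change 0.27, adjusted p 0.229), and Tet1, Tet2 and Tet3, which oxidise methylated cytosine, had log2 fold changes of -0.26, 0.02 and -0.15.

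Summed over all cells of an embryo, 58 of 18169 genes tested passed both thresholds of a call, which are an adjusted p of 0.01 and a change of 1 on the log2 scale (0.319%, and 0.782% with DESeq2). Of these, 55 rose (0.303%) and 3 fell (0.0165%: Dnmt3a, Gstm6 and Xist). Of the 55, 47 are protein-coding and 51 autosomal. All 55 had every KO embryo above every WT embryo, which 355 genes did in all (1.95%). The genes that rose were of low level: 46 averaged under 1 CPM in WT and 51 under 10 CPM in KO, with medians over the 55 of 0.227 and 1.11 CPM. Dnmt3a KO 1 was the lowest KO embryo in 40 of the 55. The male WT 2 was the highest WT embryo in 25 of them. It lay below all 4 KO embryos in all 55, which repeats the separation just given. The median ratio of the KO mean to WT 2 was 3.71, in genes selected by their difference between these same embryos. With sex as a covariate none of the 55 was called (smallest adjusted p 0.0366). All 55 kept a positive fold change (median 1.77 against 2.03 without it), and 50 had an unadjusted p under 0.05, as 1335 of all 18169 genes did. The 55 had been picked by the fit without the covariate on the same embryos, so these counts are a description. The genes called with the covariate were all lower, Dnmt3a, Dnmt3l and Utf1 among them. In bulk sums of this kind more cells that express a gene and more RNA per cell cannot be told apart, so levels within cell classes follow further on.

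**Figure D1:**
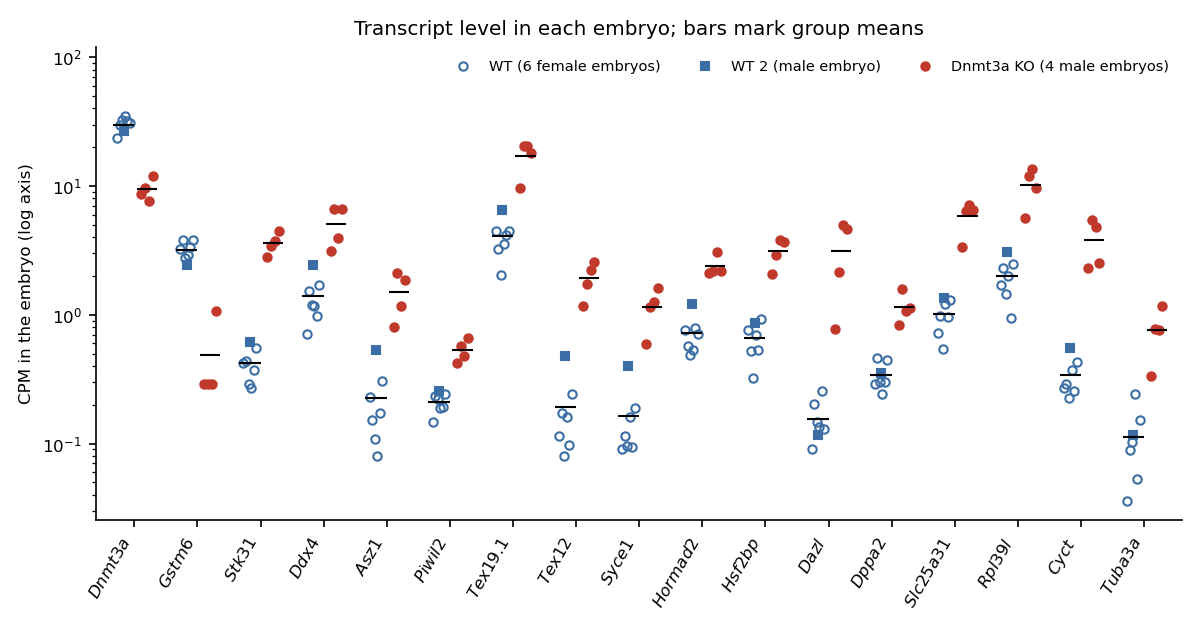
Level of Dnmt3a, Gstm6 and 15 germline list members called higher in each embryo, in CPM on a log axis, with group means as bars and the male WT 2 as a square. The KO embryos lie below all WT embryos for Dnmt3a (7.59 to 11.9 against 23.5 to 34.9 CPM) and above them for the 15 germline genes.

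Of the 55 genes that rose, 20 belong to germline lists. The 4 germline lists (meiotic chromosome, piRNA pathway, germline regulators, germline paralogues of housekeeping genes) hold 94 genes, of which 80 passed the filter on low counts, 20 rose and 0 fell. The 20 became 11 without Dnmt3a KO 13, 11 without Dnmt3a KO 2 and 0 with sex as a covariate. A positive fold change was seen in 65 of the 80, and their median log2 fold change was 0.65 against 0.00 over all genes tested. A member nearly absent in WT passes the filter only if the KO embryos carry it, which favours positive values here. These lists were chosen with earlier results on the same embryos known, so their counts are a description. Another 31 autosomal genes rose that are in none of the 4 lists.

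In the piRNA pathway, 6 of 24 members tested rose. Stk31, a tudor domain protein of the male germline (chromosome 6, 49395604 to 49469501, plus strand), stood at 2.82, 3.42, 3.74 and 4.44 CPM in the KO embryos (in the order 1, 2, 13 and 14, as in all such series of 4 values here) and between 0.268 and 0.618 CPM in WT (median 0.421, WT 2 the highest). No KO embryo came near the WT range, and the log2 fold change was 3.03 (SE 0.21, adjusted p 8.13e-06). Tex19.1, which helps to control retrotransposons in germ cells and placenta, was the most abundant of the 6, with 9.65, 20.5, 20.5 and 17.9 CPM against 2.02 to 6.49 in WT (median 4.17, WT 2 the highest). Its log2 fold change was 2.05 (SE 0.28, adjusted p 0.00207), and its near copy Tex19.2 rose by 2.04 at under 0.3 CPM. Reads of such a pair can be hard to tell apart. Ddx4, the germ cell helicase known as Vasa, stood at 3.14, 6.67, 3.94 and 6.58 CPM against 0.706 to 2.43 (median 1.18, WT 2 the highest), and Asz1, a protein of germ granules, at 0.796, 2.12, 1.18 and 1.87 against 0.0803 to 0.536, again with WT 2 the highest. Piwil2, one of the PIWI proteins that carry piRNAs, moved least of the 6, from 0.211 ± 0.0382 to 0.535 ± 0.106 CPM. Several germline calls were fragile: of the 11 libraries, leaving out any of 9 ended the call of Asz1 or Sohlh2, any of 8 that of Ddx4, Tex19.2 or Rpl10l, any of 5 that of Syce1 or Hormad2, any of 4 that of Piwil2 and any of 2 that of Tex19.1. In 10 of the 24 every KO embryo lay above every WT embryo (1.95% of all genes did). Not called among them were Gtsf1, Pnldc1, Fkbp6 (7.43 to 12.4 against 0.688 to 3.72 CPM, adjusted p 0.0327) and Rnf17 (7.92 to 10.4 against 4.43 to 7.67, adjusted p 0.0977).

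Among genes of the meiotic chromosome, 4 of 28 tested rose. Tex12, a part of the central element of the synaptonemal complex that joins paired chromosomes, stood at 1.17, 1.72, 2.22 and 2.55 CPM against 0.0794 to 0.478 in WT (median 0.161, WT 2 the highest), a log2 fold change of 3.27 (SE 0.40). Syce1, another central element protein, stood at 0.591, 1.16, 1.25 and 1.61 CPM against 0.0912 to 0.402, again with WT 2 the highest (median 0.114). Hormad2, which marks unpaired chromosome axes, and Hsf2bp, which acts in meiotic recombination, stood between 2.06 and 3.84 CPM in every KO embryo and at 1.22 CPM or less in every WT embryo. The most abundant member, Syce2, did not follow: 59.4 ± 5.14 CPM in KO and 56.4 ± 2.92 in WT. Tex15, needed to silence transposons and repair breaks in male meiosis, stood at 7.83 to 10.7 against 2.21 to 5.66 CPM and missed the threshold (log2 fold change 1.10, adjusted p 0.0109).

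Of the germline regulators, 3 of 16 tested rose. Dazl, an RNA-binding protein required for germ cell development (chromosome 17, 50279395 to 50293636, minus strand), varied widely between KO embryos, with 0.774, 2.16, 4.99 and 4.62 CPM against 0.0912 to 0.258 in WT (median 0.134, WT 2 at 0.117). The groups did not overlap, and the log2 fold change was 4.29 (SE 0.41, adjusted p 1.43e-04). Sohlh2, a transcription factor of early oocytes and spermatogonia, was likewise lowest in Dnmt3a KO 1, at 0.385, 0.989, 1.86 and 1.93 CPM, and held only 51 UMIs in all 7 WT embryos, most of its level there being in WT 2 (0.227 CPM, with at most 0.0270 in the others). Dppa2, a chromatin factor of early embryos and germ cells, stood at 0.836, 1.58, 1.07 and 1.14 CPM against 0.241 to 0.458.

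Of 19 germline paralogues of housekeeping genes, 13 passed the filter on low counts and 7 of these rose, with a median log2 fold change over the 13 of 2.35. Members nearly absent in WT, such as Cox8c and Tktl2 below, passed the filter only through the KO embryos. The filter therefore favours higher values in this count and median. Slc25a31, the ADP/ATP carrier of sperm mitochondria (chromosome 3, 40708855 to 40726096, plus strand), stood at 3.35, 6.34, 7.12 and 6.54 CPM against 0.544 to 1.36 in WT (median 0.979, WT 2 the highest), 2.53 higher on the log2 scale (SE 0.25, adjusted p 1.57e-04). Cyct, the testis cytochrome c, reached 2.32, 5.48, 4.79 and 2.54 CPM against 0.227 to 0.554, and Rpl39l, the germline form of a ribosomal protein, between 5.60 (Dnmt3a KO 1) and 13.6 (Dnmt3a KO 13) against 0.946 to 3.08, with WT 2 the highest WT embryo for both. Tuba3a, a testis alpha tubulin, averaged 0.759 ± 0.339 CPM against 0.113 ± 0.0684. Rpl39l, Rpl10l and Tuba3a have close copies whose reads can be hard to tell apart, so their levels are less certain. Cox8c, a testis form of a respiratory chain subunit, and Tktl2, which resembles transketolase, were almost unseen in WT, with 7 and 6 UMIs in all 7 embryos, and held 375 and 233 UMIs in KO. In contrast Cox6b2, the most abundant of the list, stood at 11.5 ± 2.09 CPM in KO and 12.5 ± 2.54 in WT.

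**Figure D2:**
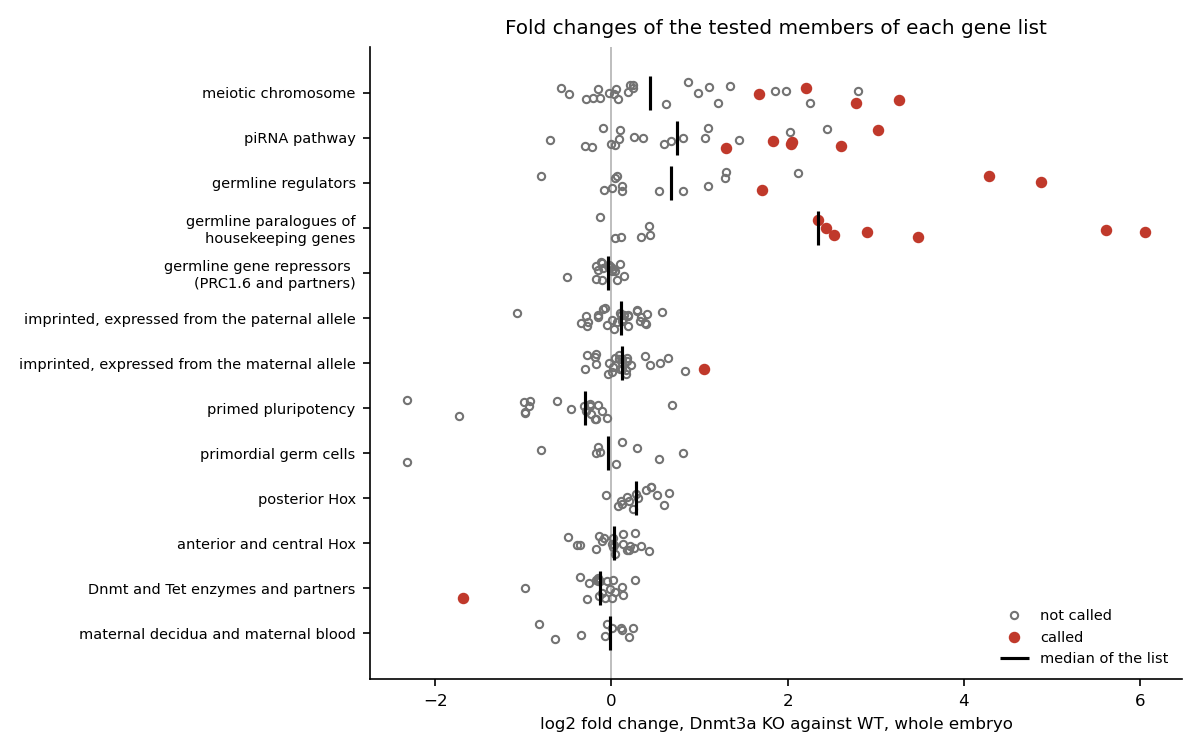
Log2 fold changes over the whole embryo (KO against WT) of the tested members of 13 gene lists, 1 point per gene, with called genes filled and the median of each list as a bar. Called genes lie to the right in the 4 germline lists, whose medians run from 0.43 to 2.35, while the medians of the other lists lie between -0.30 and 0.27.

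The UMIs of the 20 germline genes that rose were spread over many cells. In the KO embryos a gene held UMIs in 165 (Tex19.2) to 5779 cells (Tex19.1), with at most 3 to 42 UMIs in a single cell, and the 10 cells with the most UMIs of a gene held at most 13.5% of its total. These UMIs lay in 11 to 18 of the 18 cell classes for each gene. ExE endoderm held from 1.44% (Cox8c) to 88.3% (Dppa2) of the UMIs of a gene, with a median of 42.6%. This class made up 7025 of the 34089 KO cells, 4658 of them from Dnmt3a KO 2. Of 10 markers of primordial germ cells, which are few at this stage, 0 were called over the whole embryo and DESeq2 called 0 as well. An unadjusted p under 0.05 was seen in 4, where 11.8% of all genes had such a p. Of these, 3 were higher in KO (Ifitm3, Dnd1 and Dppa5a) and Pou5f1 was lower. Within classes Dnd1 was called higher in cardiomyocytes, 1 of the 12 classes in which it was tested. Ifitm3, which many other cells express as well, lay between 35.6 and 41.8 CPM in KO and between 28.5 and 35.6 in WT, with no overlap. Their summed level was 63.8 to 72.2 CPM in KO and 46.7 to 85.7 in WT, and Nanos3 and Dppa3, which define these cells, averaged 0.132 and 0.619 CPM in KO and 0.113 and 1.16 in WT. Free RNA in the droplets can give single UMIs in cells that do not express a gene, and its part in the spread over cells was not tested.

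Of the repressors known to hold germline genes silent, edgeR and DESeq2 each called 0 of 17 members of the PRC1.6 list (the Polycomb complex of E2f6, Mga and Pcgf6, and its partners), with a median log2 fold change of -0.04 and an unadjusted p under 0.05 in 1. The cancer-testis genes on the X chromosome (the Xlr, Rhox, Mage and Tex families) had 0 of 23 called over the whole embryo by edgeR (9 with an unadjusted p under 0.05) and 3 called higher by DESeq2, with a median of 0.38 and 17 positive, and sums of 269 to 404 CPM in KO and 219 to 462 in WT. Xlr, which is not in that list, rose (4.26 CPM in KO, 1.07 in WT). Reads of the Xlr genes can be hard to assign to a single copy, and X-linked genes are open to the sex difference. With sex as a covariate the median of the list was 0.63. Within cell classes some members of the list were called higher, Xlr3b in 6 of 18 classes, Xlr4b in 6 of 12, Rhox1 and Rhox4d in ExE endoderm, Rhox5 in erythroid cells and Xlr4a in forebrain and midbrain, in no class with sex as a covariate.

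Outside the germline lists, the genes that rose with the smallest p included Mgl2, a lectin of macrophages, with 0.350, 0.663, 0.923 and 1.01 CPM against at most 0.0198 in any WT embryo. Amhr2, the receptor for anti-Müllerian hormone, stood at 0.945, 1.33, 0.787 and 0.985 CPM against 0.155 to 0.329 (log2 fold change 2.03, SE 0.20). Psma8, the proteasome subunit of spermatocytes, stood at 1.65, 2.01, 2.51 and 2.27 CPM against 0.409 to 0.769 (WT 2 the highest), and Ptpn20, a phosphatase, at 0.166 to 0.461 against 0.0268 to 0.0816. In each of these the groups did not overlap.

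Several of the called genes lie on chromosome 12 with Dnmt3a, 7 of 662 tested without Dnmt3a itself. Within 20 Mb of Dnmt3a, a window set after the positions had been seen, 4 of 95 genes were called (4.21%), against 50 of 17506 (0.286%) on other chromosomes. All 4 are non-coding RNAs, from 15.6 to 18.6 Mb away: Gm49371, AC153140.2, Gm4419 and Gm47997. AC153140.2 stood at 2.08, 2.22, 2.43 and 1.87 CPM against 0.547 to 0.910, and Gm4419 at 1.34, 1.13, 1.12 and 1.34 against 0.309 to 0.551. Gm47997 (22516453 to 22517317, minus strand) had the smallest p of any gene, with 494 UMIs in the KO embryos (0.529, 0.511, 0.515 and 0.618 CPM) and 1 UMI in WT, in WT 2. That is a ratio of 702 by library totals, with an exact 95% interval for counting error alone of 125 to 27791. The 4 KO embryos lay close together in the levels of these RNAs. Linkage to the mutant allele and loss of the enzyme cannot be told apart for them in this design.

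Gstm6, a glutathione S-transferase of the mu class (chromosome 3, 107938847 to 107943749, minus strand), was the autosomal gene other than Dnmt3a that fell. With sex as a covariate it was not called (log2 fold change -2.48, adjusted p 0.136). It stood at 0.289, 0.292, 0.288 and 1.07 CPM in KO and at 2.43 to 3.82 in WT (median 3.26, WT 2 the lowest), a fitted log2 change of -2.78 (SE 0.33, adjusted p 6.90e-04). No KO embryo reached the WT range, with Dnmt3a KO 14 higher than the other 3. It was called lower in 6 of the 10 classes in which it was tested and was negative in all 10, between -3.75 and -2.08, for instance from 8.57 ± 2.62 to 0.958 ± 0.720 CPM in extraembryonic mesoderm and allantois. Of the 22 glutathione S-transferases tested, edgeR called none other (DESeq2 called 1 more, higher), and the median of the family was 0.12. Xist, the RNA that coats the inactive X of females, stood at 0.368 to 0.536 CPM in the male KO embryos and at 0.210 CPM in the male WT 2, with a WT median of 586 CPM.

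Imprinted genes, expressed from 1 parental allele according to methylation set in the germ cells, had 1 of 27 maternally and 0 of 29 paternally expressed members called by edgeR, with medians of 0.11 in both lists. DESeq2 called 1 and 1, the paternally expressed one lower. An unadjusted p under 0.05 was seen in 25.9% and 27.6% of members, and a positive fold change in 74.1% and 65.5%, against 11.8% and 50.6% of all genes. The 1 called was Asb4, at 34.1, 31.5, 35.7 and 42.0 CPM against 14.6 to 20.6 in WT, where WT 2 was the highest (log2 fold change 1.06, SE 0.12, adjusted p 4.35e-04). Zdbf2, whose paternal expression depends on methylation acquired upstream of the gene, stood between 10.8 (Dnmt3a KO 13) and 21.1 CPM (Dnmt3a KO 1), with 17.8 in Dnmt3a KO 2, against 23.4 to 48.4 in WT (30.4 in WT 2). No KO embryo reached the lowest WT embryo, but its adjusted p of 0.0105 over the whole embryo missed the threshold. Within classes Zdbf2 was called lower in 5, cardiomyocytes, extraembryonic mesoderm and allantois, gut endoderm, intermediate and lateral mesoderm and surface ectoderm, with log2 fold changes of -1.43 to -1.14. In extraembryonic mesoderm and allantois it fell from 63.6 ± 7.70 to 26.8 ± 4.76 CPM. It was negative in all 18 classes, and in ExE endoderm, where its level was low, the values were 0.951, 5.10, 0.682 and 1.62 CPM in KO and 1.27 to 4.68 in WT. The highest in each group were the shallow Dnmt3a KO 2 and WT 2, so the group means there rest on these libraries. Mest, Peg3 and Kcnq1ot1, the most abundant paternally expressed members, had adjusted p of 0.205 or more.

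Patterning and pluripotency genes were not called. Of the primed pluripotency genes 0 of 20 were called by edgeR or DESeq2 (10 had an unadjusted p under 0.05, all lower), and 19 had a negative fold change, with a median of -0.30. With sex as a covariate the direction turned (median 0.07, 12 of 20 positive), and Utf1 was called lower, a call that rests on WT 2, at 5.43 CPM against 1.16 to 2.26 in the female WT and 0.977 to 1.25 in the KO embryos. Pou5f1, which keeps cells pluripotent and is being shut down at this stage, stood at 2.56, 3.07, 0.585 and 2.24 CPM in KO and reached 27.9 in WT (median 9.94, WT 2 at 1.13), where the lowest embryo lay within the KO range, so the groups overlapped (adjusted p 0.272). Posterior Hox genes had 0 of 15 called by edgeR or DESeq2 (4 with an unadjusted p under 0.05, median 0.27, 14 positive). With sex as a covariate 9 of these 15 were positive, with a median of 0.17. Anterior and central Hox genes had 0 of 21 called by either tool (0 with an unadjusted p under 0.05, median 0.03). Neither tool called a member among p53 targets, interferon response, proliferation, glycolysis and hypoxia, housekeeping genes, globins, the yolk sac carriers and the extraembryonic markers, whose medians lay between -0.14 and 0.19 and of which 0 to 5 members a list had an unadjusted p under 0.05. With sex as a covariate, again without a call, the median was 1.04 for the yolk sac carriers (24 of 24 positive, against 5 of 24 without it). It was -1.39 for the globins and 0.63 for the extraembryonic markers. Of the glycolysis and hypoxia genes 6 of 24 were positive with the covariate and 22 of 24 without it. No direction is therefore given for these lists. Markers of maternal decidua and blood, tissue that can be carried over at dissection, summed to 161 to 420 CPM in KO and 98.1 to 639 in WT, with 0 of 10 called by either tool and 1 with an unadjusted p under 0.05.

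The next question is in which cells these changes lay. Cells were clustered without the listed genes and 38 of 45 clusters were named after 18 classes by their markers, with 14.9% ± 7.74 (SD, n = 4) of KO and 12.4% ± 5.94 (n = 7) of WT cells left unnamed, most in the shallow Dnmt3a KO 2 (25.6%) and WT 2 (24.1%). Over all classes 233 of 201411 gene and class pairs were called (0.116%), 179 higher and 54 lower, from 103 genes, 71 of them in a single class. Dnmt3a and Xist account for 30 of the 54 lower pairs. Germline list members made up 66 pairs, in 11 classes, and 38 of the 103 genes had also been called over the whole embryo. In ExE endoderm the called genes numbered 56 of 12965 tested (0.432%), 46 of them higher, in extraembryonic mesoderm and allantois 31 (0.253%), in intermediate and lateral mesoderm 20 (0.150%), in surface ectoderm 20 (0.161%) and in erythroid cells 19 (0.174%). Leaving out 1 library moved these counts widely, to between 30 (without Dnmt3a KO 13) and 79 (without WT 2) in ExE endoderm, 18 and 43 (the same embryos) in extraembryonic mesoderm and allantois, 12 (without Dnmt3a KO 13) and 55 (without WT 1) in intermediate and lateral mesoderm and 3 (without Dnmt3a KO 13) and 35 (without WT 2) in surface ectoderm. In forebrain and midbrain the 13 became 3 without Dnmt3a KO 13 and 29 without WT 1, and in gut endoderm the 9 became 3 without Dnmt3a KO 13 and 23 without Dnmt3a KO 1. Cardiomyocytes went from 8 to 33 and NMP from 13 to 29 without WT 1, and hindbrain and spinal cord from 6 to 13. Erythroid cells ran from 12 to 26, somitic mesoderm from 1 to 16, presomitic mesoderm from 1 to 11, neural crest from 1 to 9, head mesenchyme from 0 to 9, pharyngeal mesoderm from 0 to 6 and endothelium from 10 to 21, each lowest without Dnmt3a KO 13. Immune cells ran from 0 to 5 and notochord from 4 to 8. No gene was called in the immune class by edgeR, where 4 WT embryos had enough cells, DESeq2 called 4 and the unadjusted p was under 0.05 for 463. The share of called genes was 0.122% in endothelium, 0.112% in NMP, 0.107% in forebrain and midbrain, 0.0778% in cardiomyocytes, 0.0719% in gut endoderm and 0.068% in notochord. It was 0.0603% in somitic mesoderm, 0.0493% in neural crest, 0.0484% in hindbrain and spinal cord, 0.0285% in head mesenchyme, 0.0267% in presomitic mesoderm and 0.00984% in pharyngeal mesoderm, where the 1 gene was Xist. In notochord 0 of the 5 called genes were autosomal, with 1 X-linked and 4 Y-linked. The male WT 2 had only 15 notochord cells and was not tested there, so all WT embryos in that class were female. Cell numbers differ between classes by over an order of magnitude, from 118 KO cells in notochord to 7025 in ExE endoderm, so the counts do not rank the classes.

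**Figure D3:**
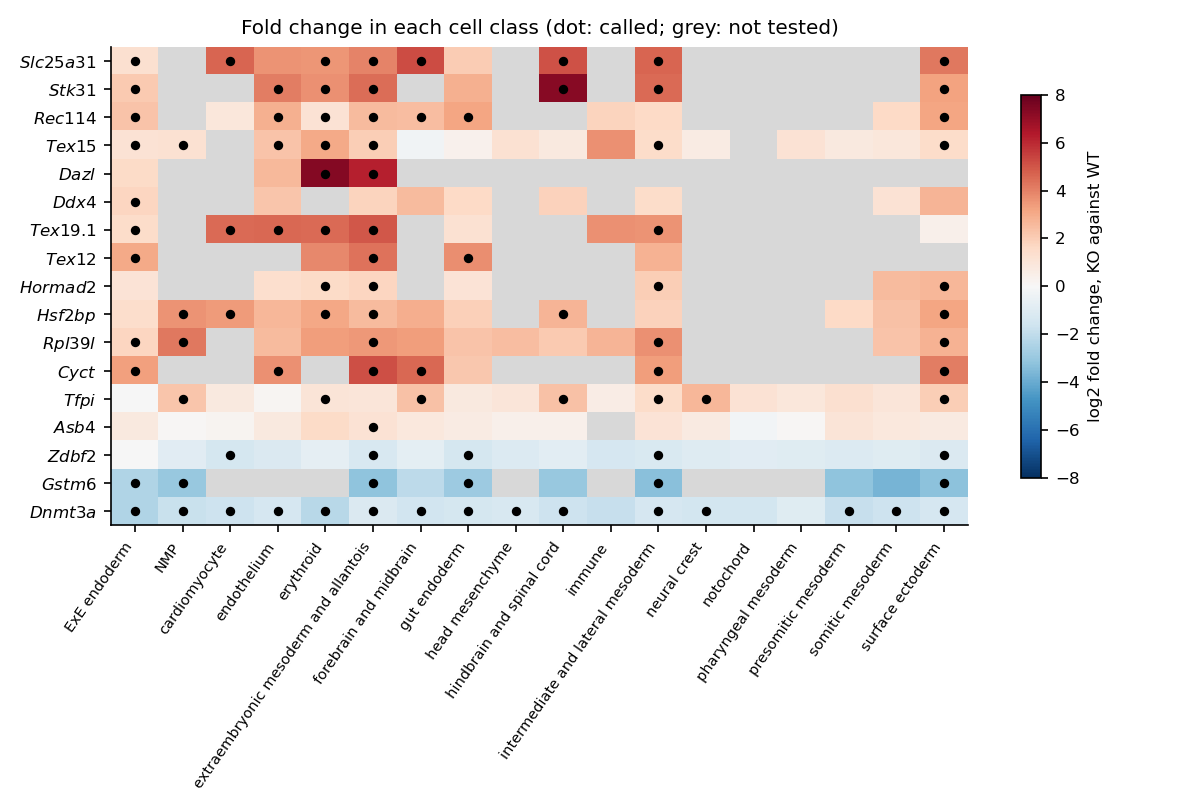
Log2 fold change (colour, red higher and blue lower in KO) of 17 genes in each of 18 cell classes, with a dot where the gene was called and grey where too few counts were present for a test. Germline genes are red in nearly every class in which they were tested, with Slc25a31 called in 8 classes and Stk31 in 7, while Dnmt3a is blue in all 18. A germline gene nearly absent in WT was tested only in classes where KO cells carried it.

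Slc25a31 was called in 8 of the 10 classes in which it was tested, and Stk31 in 7 of 8, each positive in all of them. A gene nearly absent in WT passes the filter on low counts only in classes where KO cells carry it. The positive signs over the tested classes therefore follow in part from the filter. Most of these class calls were lost under the sex covariate: with sex as a covariate Slc25a31, Stk31, Tex19.1, Dazl, Rec114, Tfpi, Gstm6 and Zdbf2 were called in 0 classes, Tex15 in 1 and Dnmt3a in 6. Zdbf2 was called in 2 classes without Dnmt3a KO 14. Slc25a31 was called in 6 classes without Dnmt3a KO 13 and in 16 without Dnmt3a KO 1. In cardiomyocytes Slc25a31 stood at 12.2 ± 5.27 CPM in KO and 0.485 ± 0.475 in WT (log2 fold change 4.69, SE 0.50, adjusted p 1.15e-04). In extraembryonic mesoderm and allantois Stk31 stood at 8.11 ± 2.68 CPM against 0.316 ± 0.310 (log2 fold change 4.45, SE 0.36). In hindbrain and spinal cord Stk31 had 87 UMIs in KO and 0 in the 7 WT embryos. Tex19.1 was called in 6 of 9 classes and reached 38.6 ± 19.5 CPM in erythroid cells against 1.31 ± 0.964 in WT. Dazl was called in 2 of the 4 classes tested, erythroid cells (0.791 to 22.8 CPM against at most 0.136 in WT) and extraembryonic mesoderm and allantois (1.83 to 20.8 against at most 0.233). Its wide range among KO embryos was seen in both. Tex15 was called in 7 of 16 classes and Rec114, a factor of meiotic DNA break formation, in 7 of 11, although neither was called over the whole embryo, and without Dnmt3a KO 13 they were called in 4 and 3 classes. Rec114 stood at 8.29 ± 3.14 CPM in extraembryonic mesoderm and allantois against 1.32 ± 0.513 in WT.

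Tfpi, an inhibitor of blood coagulation, was also called in 7 classes and is not a germline gene. It was higher in neural crest (23.0 ± 7.82 CPM against 3.45 ± 1.10, log2 fold change 2.67, SE 0.25), hindbrain and spinal cord, forebrain and midbrain, NMP, surface ectoderm, intermediate and lateral mesoderm and erythroid cells. In ExE endoderm it stood at 139 ± 26.0 and 143 ± 20.9 CPM. Over the whole embryo the change was 0.52 on the log2 scale (adjusted p 0.178).

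The WT level of several germline genes was compared between ExE endoderm and the pool of all other cells, unnamed cells included, without a test. In WT embryos Tex19.1 averaged 20.3 CPM in ExE endoderm and 1.34 in all other cells, Ddx4 5.61 and 0.720, Slc25a31 4.65 and 0.377, and Stk31 2.05 and 0.158. Hormad2 was the other way, at 0.401 and 0.771 CPM. The WT means in other cells lean on WT 2, which stood at 5.43 CPM for Tex19.1 where the other 6 lay between 0.272 and 1.04, and at 1.90 for Ddx4 where they lay between 0.287 and 0.666. In KO embryos the first 4 genes averaged 58.0, 18.1, 11.2 and 8.88 CPM in ExE endoderm and 10.2, 2.72, 4.87 and 2.69 in other cells. In other cells WT 2 lay above the lowest KO embryo, Dnmt3a KO 1, for Tex19.1 (4.82 CPM) and Ddx4 (1.31 CPM), so the groups overlapped there. The difference in log2 fold change, ExE endoderm minus other cells, was -2.56 for Slc25a31 (SE 0.41, edgeR interaction test, adjusted p 0.0286), -2.19 for Stk31 (SE 0.35, adjusted p 0.0280) and -3.21 for Dazl (SE 0.56, adjusted p 0.0415). For Ddx4 it was -0.25 (adjusted p 0.611) and for Tex19.1 -1.998 (SE 0.53, adjusted p 0.137), while it was positive for Dppa2 (1.09, adjusted p 0.346), Tex19.2 (1.15, adjusted p 0.255) and Sohlh2 (0.74, adjusted p 0.703). None of 15708 genes tested passed an adjusted p under 0.01 in this interaction (0%), although DESeq2 called 61 and 2598 had an unadjusted p under 0.05.

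The genes of smallest p in that interaction were Tfpi (-1.02, adjusted p 0.0132), Emp2, H2-Q10, Trf and Bdh2. Emp2, a membrane protein of epithelia, fell in ExE endoderm from 12.5 ± 1.54 to 4.85 ± 1.30 CPM (log2 fold change -1.38, SE 0.14), and stood at 9.49 ± 1.72 in WT and 11.6 ± 0.387 in KO in other cells. H2-Q10, a secreted class I MHC molecule, fell there from 11.7 ± 3.72 to 3.98 ± 0.889 CPM. Bdh2, an enzyme of ketone and siderophore metabolism, fell from 6.12 ± 0.654 to 2.69 ± 0.671 CPM. Trf, transferrin, was level in ExE endoderm (305 ± 75.4 and 275 ± 55.4 CPM), and in other cells stood at 2.15 ± 0.934 in WT and 6.58 ± 1.52 in KO. Transcripts of ExE endoderm free in the droplets would raise such a gene in other cells. The other cells also included an unnamed cluster whose best marker score was for ExE endoderm, with 24.5% of its clustered cells from WT 2. The part of free transcripts and of such cells in the levels of other cells was not tested.

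**Figure D4:**
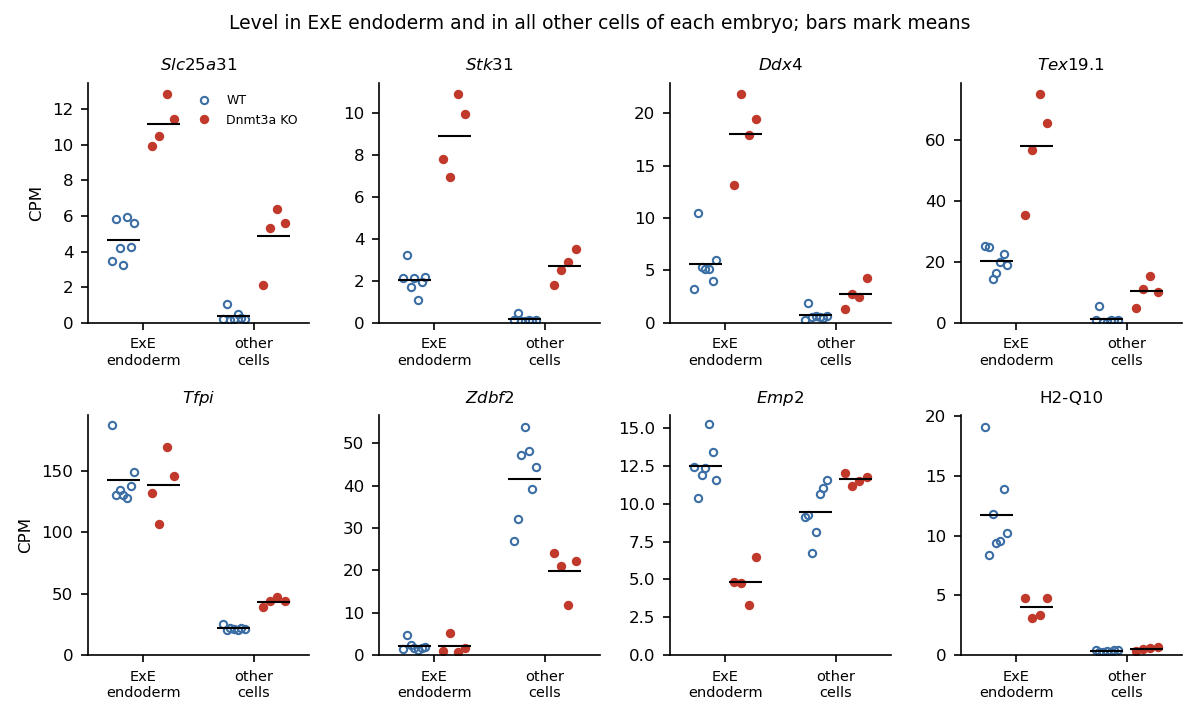
Level of 8 genes in ExE endoderm and in all other cells of each embryo, in CPM, with group means as bars (KO filled, n = 4; WT open, n = 7). The means of Slc25a31, Stk31, Ddx4 and Tex19.1 are higher in KO in both compartments, with WT 2 above Dnmt3a KO 1 for Ddx4 and Tex19.1 in other cells, Zdbf2 averages 19.8 CPM in KO and 41.7 in WT in other cells, and Emp2 and H2-Q10 are lower in KO in ExE endoderm.

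Within ExE endoderm, 14 of the 56 called genes are in the germline lists. Many of the others had enough counts for a test in few classes (Gpd1, Pgc and Aqp1 in 2, Amhr2 in 1), so a call here does not mark a gene as particular to the class. Apobec2, a member of the cytidine deaminase family, rose from 8.95 ± 1.62 to 24.9 ± 4.88 CPM, Gpd1, a glycerol phosphate dehydrogenase, from 2.55 ± 0.449 to 7.31 ± 1.07, Pgc, the precursor of a gastric protease, from 15.2 ± 3.89 to 38.4 ± 6.90, and Aqp1, a water channel, from 0.571 ± 0.125 to 2.68 ± 0.168. Dppa4, the partner of Dppa2, rose from 0.0943 ± 0.108 to 1.75 ± 0.938 CPM, and Dppa2 from 1.94 ± 0.313 to 7.06 ± 2.21. Those that fell included Emp2, Bdh2, Gstm6, Itga6 (an integrin of epithelial basement membranes, 14.9 ± 1.78 to 6.50 ± 2.35 CPM), H2-Q10, Tff3 and Susd4. These genes were picked from the list of calls for their level or known role, after their values had been seen, and none of them was called in any class with sex as a covariate. The class was made of 4 clusters in both groups, in proportions that differed between embryos. The 2 clusters with the most UMIs per cell held 263 and 55 cells of Dnmt3a KO 13, 460 and 94 of WT 1 and 153 and 421 of WT 3. Dnmt3a KO 2 gave 4658 of the 7025 KO cells. One of the 4, with a median of 1973 UMIs per cell, held 2266 cells of Dnmt3a KO 2, 295 of WT 2 and at most 23 of any other embryo.

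Cell makeup was compared last. The shares of the 18 classes showed no difference that passed an exact two-sided permutation test adjusted over classes (0 of 18, smallest adjusted p 0.364). With 330 assignments the smallest exact permutation p is 0.00303, which adjusted over 18 classes leaves no single class able to pass 0.05, so the 0 says little. The smallest unadjusted p was for presomitic mesoderm, which made up 2.05% ± 0.784 of the cells in KO and 3.86% ± 1.27 in WT (exact permutation p = 0.0364). NMP, the progenitors of spinal cord and somites, made up 3.13% ± 0.393 and 5.21% ± 1.79, and cardiomyocytes 1.44% ± 0.607 and 2.12% ± 0.479, each with an exact permutation p of 0.0606. ExE endoderm made up 12.8%, 36.6%, 7.28% and 13.5% of the cells of the KO embryos and 9.27% to 19.4% in WT, so that Dnmt3a KO 2 alone set the KO mean of 17.5% above the WT mean of 12.7% ± 3.35. Without it the log2 difference turned from 0.24 to -0.20. Of the 4658 ExE endoderm cells of Dnmt3a KO 2, 2266 lay in the cluster with a median of 1973 UMIs per cell. The share without that cluster was not tested. The 95% exact interval for Dnmt3a KO 2 was 35.8% to 37.4%, for counting error only.

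**Figure D5:**
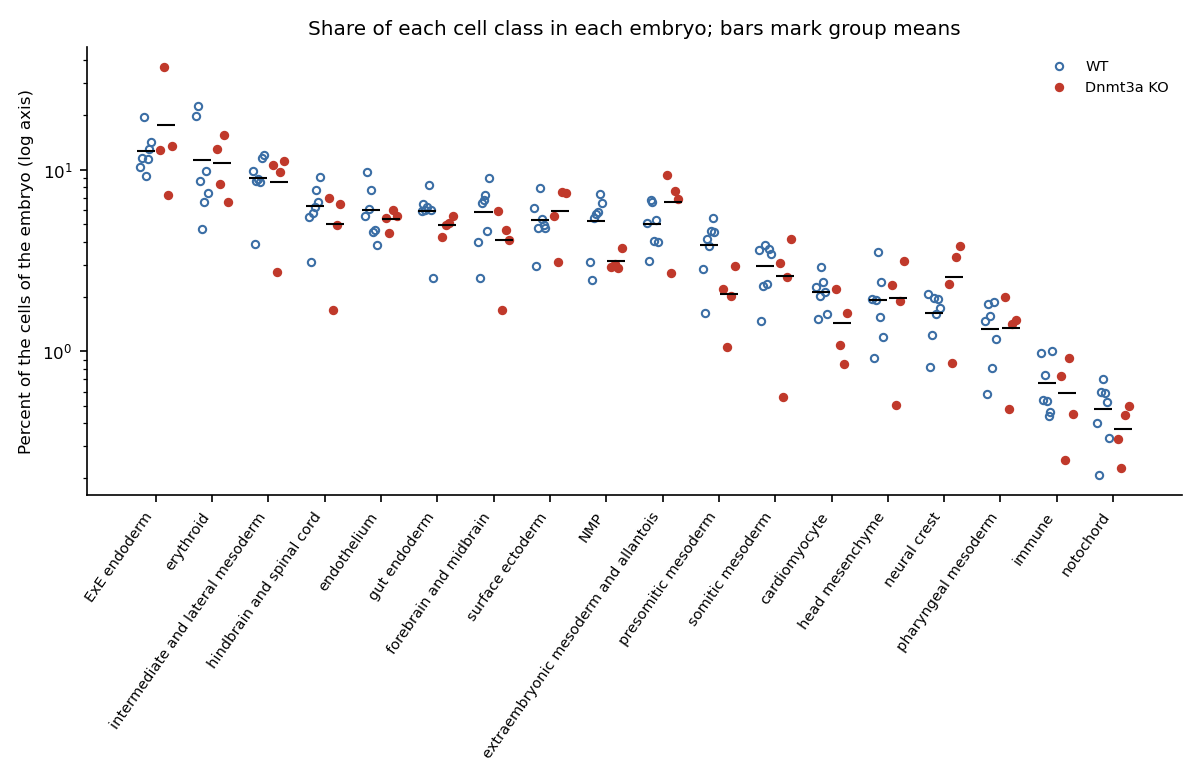
Share of each of the 18 cell classes among the cells of each embryo, in percent on a log axis, with group means as bars (KO filled, n = 4; WT open, n = 7). The groups overlap in all 18 classes, and Dnmt3a KO 2 stands apart in ExE endoderm at 36.6%. Of its 4658 cells there, 2266 lay in 1 cluster with a median of 1973 UMIs per cell.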

How the data were processed

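Single-cell RNA-seq (10x Genomics, 3′ tags) had been run on 11 single E8.5 embryos, 4 Dnmt3a KO and 7 WT. The deposited values are raw UMI counts per gene and cell, which the authors made with Cell Ranger (version 3.1.0 per the file headers) on mm10, for 3 libraries on a combined human and mouse reference, whose human rows were dropped here. Cells with at least 1500 mouse UMIs and at most 30% from mitochondrial genes were kept. Counts were summed per embryo and tested with edgeR 4.0.16 (R 4.3.3; quasi-likelihood test, TMM scaling, filter on low counts), calling genes whose Benjamini-Hochberg adjusted p was under 0.01 and whose log2 fold change exceeded 1 in size. P-values measure the spread between embryos.

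For cell classes, predicted doublets (4901 cells) were removed, leaving 68589. Up to 1500 cells per embryo were clustered (scanpy 1.11.5, 2500 variable genes without the listed genes, 50 components, 30 neighbours, Leiden resolution 2) and the others assigned to the clusters. Clusters were named from marker lists. Class sums of embryos with at least 25 cells were tested where each group had 3 or more. The interaction of genotype with ExE endoderm had the embryo as block. Class shares were compared by exact permutation tests. Gene positions come from the annotation of the same build.

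Genes were named by rule: Dnmt3a, the 15 called genes of smallest p in each direction, called list members, in each direction the 5 with calls in most classes, the 3 most abundant members of lists without calls, and the methylation enzymes. Others were chosen after their values were seen. They are Tex15 and Rec114 where compared over the whole embryo, Fkbp6, Rnf17, Gtsf1, Pnldc1, Syce2, Cox6b2, Xlr, Gm49371, Nanos3, Dppa3, Ifitm3, Dnd1, Dppa5a, Pou5f1, the members of the Xlr and Rhox families, the genes called with the sex covariate and the genes of ExE endoderm. The members and lists were chosen with earlier results of these data known. Tests were checked on simulated data, with changes placed only in the more abundant genes and no sex difference. That check does not cover genes of low level or the confounding of sex with genotype. DESeq2 1.42.0, other scalings and filters, covariates and left-out libraries were tried as alternatives. Intervals cover counting error only.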

Additional observations from a re-analysis of the deposited data

Results flagged for a closer look

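In 124 groups of values (44 genes and 18 cell classes, in KO and in WT), 14 held 1 embryo that stood apart by Dixon's criterion. Its gap to its nearest neighbour was large for the range of its group. Chance meets the criterion in about 1 of 20 groups of independent, normally distributed values. Many values here are low CPM of genes picked for their difference, so the 14 cannot be set against that rate. Of the 14, 9 were in WT 2, the male and shallow WT embryo. It was highest for Gm47997 (0.00583 CPM), Ptpn20 (0.0816), Syce1 (0.402), Tex12 (0.478), Hormad2 (1.22), Sohlh2 (0.227) and Dnmt3l (1.38), and lowest for Xist (0.210 CPM) and the share of intermediate and lateral mesoderm (3.89% of cells). The other WT values that stood apart were Noxred1 in WT 3 (0.953 CPM) and the share of gut endoderm in WT 7 (2.53% of cells). Among KO embryos, Dnmt3a KO 14 was highest for Gm47997 (0.618 CPM) and Gstm6 (1.07), and Dnmt3a KO 13 for Hormad2 (3.06).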

How the results depend on the processing

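Sex was almost confounded with genotype. The 58 genes called over the whole embryo became 5 with sex as a covariate (0 higher, 5 lower), 142 with DESeq2, 35 after thinning to the smallest library and 32 to 92 when 1 library was left out (32 if Dnmt3a KO 13 was left out, 34 for Dnmt3a KO 2, 34 for WT 6 and 92 for WT 2). Without WT 2 no male WT embryo is left, so sex and genotype coincide. Of the 92, 14 were X-linked and 8 Y-linked, against 4 and 1 of the 58. With sex as a covariate the fold changes of Xist (0.92) and Tsix (1.19) turned positive, and 3 list members were called in place of 24. The 233 gene and class pairs called became 495 with DESeq2, 622 without the filter on low counts, 26 with sex as a covariate, 93 after thinning, 386 without both shallow libraries and 120 to 387 when 1 library was left out (120 for Dnmt3a KO 13, 369 for WT 1 and 387 for WT 2). The sex covariate could not be fitted in notochord. In the ExE endoderm interaction, where none was called, scaling by RLE gave 3 genes, DESeq2 61, no filter 1, and leaving out 1 library 0 to 12 (12 without Dnmt3a KO 2, 11 without WT 2). The log2 difference of the ExE endoderm share ran from -0.20 without Dnmt3a KO 2 to 0.58 without Dnmt3a KO 13. Class shares gave 0 calls with any library left out, which says little, since the smallest p these permutations allow leaves hardly any room for a call. The Dnmt3a transcript level stayed between -1.74 and -1.61 with any library left out. Only the numbers 1 and 2 are shared by the groups: with a replicate block on these 4 embryos the Dnmt3a transcript level changed by -1.52 (adjusted p 0.0774) and 0 genes were called, and without the block by -1.52 (adjusted p 0.222), again with 0 genes. Same-numbered embryos deviated together (correlations of 0.397 and 0.113 over genes, against -0.143 and -0.238 for the crossed pairs), a hint from the data and not from the design. Dnmt3a KO 1 and WT 1 were both counted on the combined reference, and Dnmt3a KO 2 and WT 2 were the shallow libraries. A pairing of embryos and these shared features cannot be told apart. The cause of these shifts was not tested. Fits that left out libraries or UMIs also had fewer of them, and the part of that was not tested either. Genes under 1 CPM are at the limit of this depth.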
